A study of Arabidopsis thaliana with 24 samples.

Results

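The 5 genes described here encode proteins of the endoplasmic reticulum body and of its lectin partners, or close relatives of them: the β-glucosidases PYK10 and BGLU19, the ER body protein NAI2, and the jacalin-related lectins JAL34 and AT3G21380. They were chosen by name with earlier results of these data known, so counts of called genes among them are a description, not a test. Each was measured by a single probe set, so the rule of taking the probe set with the highest mean made no choice. They are 5 of the 13356 genes that had a probe set of their own on the array, among 22746 probe sets tested.

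ER bodies are rod-shaped compartments, continuous with the endoplasmic reticulum, that occur in Brassicaceae seedlings and roots and store β-glucosidases at high concentration. When tissue is damaged, the enzymes meet their glucoside substrates, and PYK10 gathers into large complexes with jacalin-related lectins. The transcription factor NAI1 drives expression of PYK10 and NAI2, and NAI2 is needed for the compartments to form. Dry *Arabidopsis* seed carries transcripts stored during maturation, many of which are lost when the seed takes up water.

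Seeds of wild-type Col-0 (WT) and of the line Attim17-1 (tim17-1), which is also in the Col-0 background, were compared. The line is named for a TIM17 protein of the inner-membrane translocase that imports proteins into mitochondria; the labels do not describe the allele, and the *TIM17-1* transcript was not analysed here. Each genotype was collected as dry seed (0 h), after 48 h of stratification at 4 °C in darkness (48 h S), and after a further 6 h (6 h SL) or 24 h (24 h SL) in continuous light at 22 °C. Each of the 8 groups had 3 arrays, 24 in all, made from 80 mg of seed and 400 ng of total RNA. Dry seed was after-ripened for 15 days by the design text and 14 days by the treatment protocol. One label calls the WT dry seed freshly harvested, and the description of the WT 6 h SL arrays names stratification where their title and source name give light. The arrays of a group are numbered, but nothing says that they came from separate seed lots, so a p-value here reflects only how far these arrays scatter, and that scatter may be technical. Whole seeds were extracted, so fewer cells of a type and less RNA per cell cannot be told apart.

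Array medians ranged from 19.63 to 36.44 and upper quartiles from 234.2 to 258, in the authors' deposited linear intensity units. Of 14 listed markers of embryo and storage tissue 4 were measured, and their summed intensity fell from 87700 to 92400 in dry seed to 2280 to 3480 at 24 h SL. Their sum overlapped between genotypes at 0 h, 6 h SL and 24 h SL, but at 48 h S it was 69000 to 71500 in WT and 57600 to 60700 in tim17-1. The sum of 3 measured pollen markers was 348 to 388 in WT dry seed and 40.3 to 144 in tim17-1 dry seed, and 12.6 to 13.9 at all later stages. The sum of 3 seed coat markers stayed between 15.6 and 23.4 on all arrays. None of 4 listed endosperm markers was measured. All differences below are on the scale log2(intensity + 16), as log2 units ± SE. The SE of a gene pools the scatter of all 8 groups. A gene was called higher or lower at a Benjamini-Hochberg adjusted p under 0.05 over all probe sets in limma.

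The 5 genes fell into 2 patterns over germination. Transcripts of *PYK10*, *NAI2* and *JAL34* were at the low end of the arrays in dry and stratified seed and were abundant at 24 h SL, while those of *BGLU19* and *AT3G21380* were among the most abundant in dry seed and fell to a few percent of that level or less.

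*PYK10* encodes the main β-glucosidase of seedling and root ER bodies. In dry seed its intensity was 5.48, 6.56 and 5.86 on the 3 WT arrays and 5.26, 5.55 and 5.67 on the tim17-1 arrays. After stratification it was 5.35, 5.31 and 5.45 in WT and 5.36, 5.5 and 5.36 in tim17-1. The groups overlapped at both stages. At 6 h SL the WT arrays gave 155.2, 119.8 and 157.9 and the tim17-1 arrays 37.41, 71.04 and 54.81, so that every WT array was above every tim17-1 array. The 24 h SL values were 17020, 16970 and 17710 in WT and 12240, 15740 and 16980 in tim17-1. The lowest *PYK10* value at 24 h SL stood above 99.4% of the probe sets on its array, whereas the lowest dry-seed value stood above 13.4%. The 24 h SL ranges of the genotypes overlapped, by a narrow margin. In the assembly table used for names the annotated span of *PYK10* overlaps that of *AT3G09250*, whose WT mean was 161 ± 39.6 (SD, n = 3) in dry seed and 343 ± 19.4 at 24 h SL.

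*NAI2* encodes a protein of the ER body that is required for the compartment to form. Dry seed of WT gave a mean intensity of 4.87 ± 0.307 (SD, n = 3) and dry seed of tim17-1 one of 4.23 ± 0.04. After stratification the means were 4.14 ± 0.408 and 4.3 ± 0.483. At 6 h SL the arrays read 30.04, 23.38 and 25.58 in WT and 10.76, 24.69 and 18.53 in tim17-1. After 24 h of light they read 3335, 4252 and 3654 in WT and 3050, 3112 and 3134 in tim17-1. The genotypes overlapped at 6 h SL through tim17-1 replicate 2 and did not overlap at 24 h SL.

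*JAL34* encodes a jacalin-related lectin and lies in a run of lectin genes on chromosome 3, next to *JAL33*. It kept a low level for longer than *PYK10* and *NAI2*: from dry seed to 6 h SL its intensity lay between 6.68 and 12.61 on all arrays. Its 24 h SL values were 3059, 3450 and 3046 in WT and 2676, 2440 and 2748 in tim17-1, with no overlap. In the same table the annotated span of *JAL34* overlaps that of *JR1* (JAL35), another lectin gene with no probe set of its own here, and whether its probes also detect *JR1* was not tested.

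*BGLU19* encodes a β-glucosidase of the same subfamily as PYK10. Dry seed gave 34490, 28110 and 35640 in WT and 35860, 33010 and 31680 in tim17-1, above at least 99.9% of probe sets on each array. After stratification the values were 7456, 8294 and 7622 in WT and 7290, 7156 and 7315 in tim17-1. At 6 h SL they were 2553, 4515 and 3607 in WT and 6838, 6378 and 6168 in tim17-1. The tim17-1 arrays at 6 h SL all lay above the WT arrays of that stage and below all 6 arrays of stratified seed. After 24 h of light they were 226.4, 200.7 and 381.8 in WT and 731.6, 603.7 and 603 in tim17-1, again with no overlap.

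*AT3G21380* encodes a jacalin-related lectin. Dry seed gave 15050, 16030 and 16350 in WT and 16090, 16090 and 17010 in tim17-1. After stratification the values were 328.2, 322.9 and 292.4 in WT and 246.5, 234.4 and 254 in tim17-1, which is 1.99% and 1.49% of the dry-seed mean. At 6 h SL they were 243.5, 470.4 and 303.2 in WT and 729.9, 601.2 and 559.5 in tim17-1. After 24 h of light they were 82.93, 101.4 and 107.4 in WT and 146.2, 158.6 and 180.1 in tim17-1. In tim17-1 the 6 h SL arrays were all above the 48 h S arrays, while in WT the ranges of the 2 stages overlapped. The tim17-1 arrays were all above the WT arrays at 6 h SL and 24 h SL. At 48 h S they were all below them, a difference that was not called (limma, adjusted p = 0.4).

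**Figure D1:**
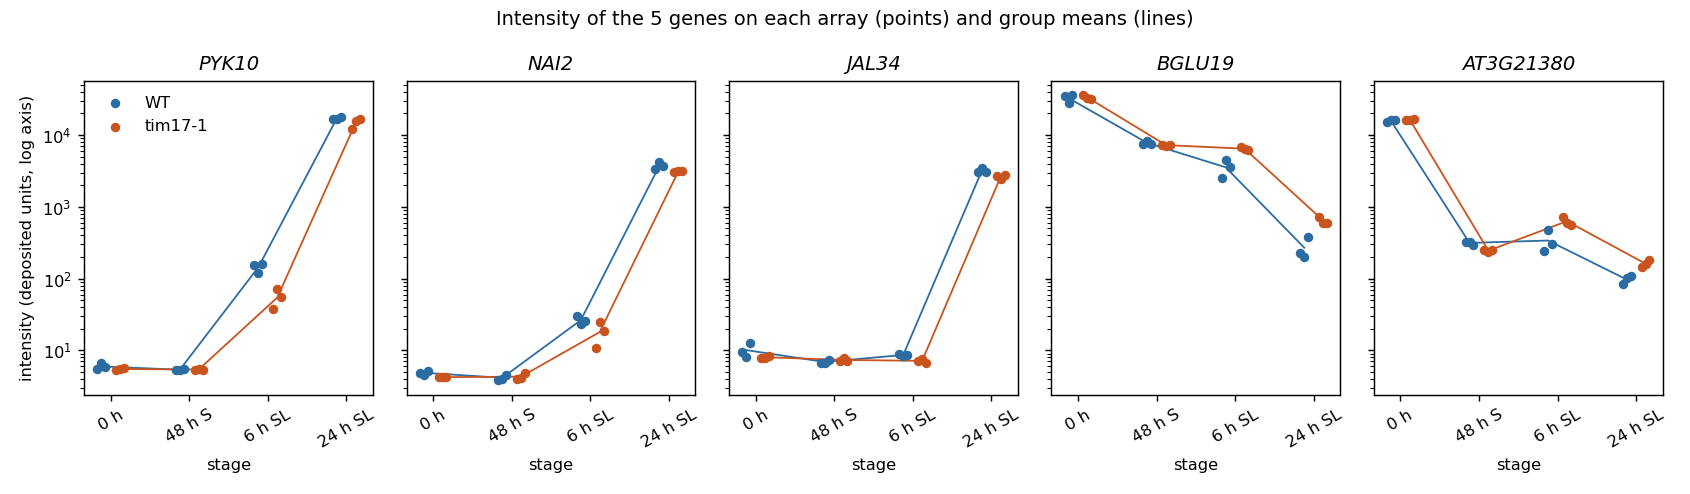
Intensity of the 5 genes (log axis, the authors' deposited units) at the 4 stages, with 1 point for each of the 3 arrays of a group and lines through the group means. *PYK10*, *NAI2* and *JAL34* reach means of 17200, 3750 and 3190 in WT at 24 h SL, and *BGLU19* and *AT3G21380* fall from 32700 and 15800 in WT dry seed to 270 and 97.3.

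The steps between stages were tested in each genotype; consecutive steps share the arrays of the stage between them. During stratification 3 of the 5 genes were called lower in WT (44.7% of all probe sets were) and 0 higher (28.4%); 3 had an unadjusted p under 0.05. *AT3G21380* changed by -5.58 ± 0.157 (limma, adjusted p = 5.51e-16) and *BGLU19* by -2.06 ± 0.192 (limma, adjusted p = 1.93e-08). *JAL34* was called lower at -0.19 ± 0.0535 (limma, adjusted p = 0.00517) at intensities of 6.68 to 12.61. That call was lost with log2(intensity + 64), at -0.06, and when only the 6 arrays compared were fitted (limma, adjusted p = 0.0626). The difference was -0.47 with log2(intensity + 1), -0.37 with cyclic loess scaling, and -0.12 without WT 0 h replicate 3. In tim17-1, 2 genes were called lower (32.9% of all probe sets) and 0 higher (26.8%). The change was -5.97 ± 0.157 for *AT3G21380* and -2.2 ± 0.192 for *BGLU19*, and these 2 were also the genes with an unadjusted p under 0.05. For *PYK10* and *NAI2* the stratification step lay between -0.05 and 0.00 in the 2 genotypes and was not called, nor was that of *JAL34* in tim17-1 (-0.04 ± 0.0535).

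In the first 6 h of light *PYK10* and *NAI2* were called higher in WT, 2 of 5 genes against 19.4% of all probe sets, and *BGLU19* was called lower, 1 of 5 against 18.4%. *PYK10* rose by 2.90 ± 0.134 (limma, adjusted p = 7.82e-12), *NAI2* rose by 1.07 ± 0.105 (limma, adjusted p = 1.46e-07) and *BGLU19* changed by -1.16 ± 0.192 (limma, adjusted p = 6.65e-05). In tim17-1, 3 genes were called higher (18.9% of all probe sets) and 0 lower (19.2%), and these 3 were the ones with an unadjusted limma p under 0.05. *PYK10* rose by 1.69 ± 0.134, *NAI2* by 0.72 ± 0.105 and *AT3G21380* by 1.30 ± 0.157 (limma, adjusted p = 1.06e-08, 1.73e-05 and 2.08e-06). *BGLU19* changed by -0.17 ± 0.192 in tim17-1 and was not called (limma, adjusted p = 0.535), and *AT3G21380* changed by 0.05 ± 0.157 in WT and was not called. For *JAL34* the step was 0.11 ± 0.0535 in WT (limma, adjusted p = 0.153) and -0.01 ± 0.0535 in tim17-1, and neither was called. The WT step of *JAL34* was called with array weights (0.11), with log2(intensity + 1) (0.29) and with only the arrays compared (limma, adjusted p = 0.00568). *PYK10* and *NAI2* started this step below the added 16, so its size depends on that choice: with log2(intensity + 1) and log2(intensity + 64) the WT step was 4.50 and 1.58 for *PYK10* and 2.41 and 0.41 for *NAI2*. In tim17-1 it was 3.07 and 0.76 for *PYK10* and 1.77 and 0.26 for *NAI2*, and all of these were called.

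Between 6 and 24 h of light all 5 genes were called in both genotypes. In WT 3 were called higher (20.5% of all probe sets) and 2 lower (25.1%), and in tim17-1 3 were called higher (20.7%) and 2 lower (22.5%). *JAL34* rose by 7.02 ± 0.0535 in WT and by 6.83 ± 0.0535 in tim17-1 (limma, adjusted p = 6.12e-23 and 9.74e-23). *PYK10* rose by 6.76 ± 0.134 and 7.75 ± 0.134, and *NAI2* by 6.47 ± 0.105 and 6.54 ± 0.105. *BGLU19* was called lower, at -3.66 ± 0.192 in WT and -3.29 ± 0.192 in tim17-1, and so was *AT3G21380*, at -1.60 ± 0.157 and -1.86 ± 0.157.

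The next question was whether tim17-1 seed differed from WT seed in these transcripts at each stage. In dry seed and after stratification it did not differ beyond the threshold for any of the 5 genes. In dry seed 1.32% of all probe sets were called higher and 2.33% lower, and at 48 h S 0.361% and 0.870% were. The genes with an unadjusted limma p under 0.05 were *JAL34* at 0 h (-0.12, 0.0456) and *AT3G21380* at 48 h S (-0.34, 0.0452), 1 at each stage. The 95% interval of the difference at 48 h S was -0.505 to 0.303 for *BGLU19* and -0.28 to 0.285 for *PYK10*. The other differences were -0.05 to 0.05 for *PYK10*, *NAI2*, *BGLU19* and *AT3G21380* in dry seed and 0.01 and 0.03 for *NAI2* and *JAL34* at 48 h S. After stratification the ranges were separated for 2 of 5 genes lower in tim17-1 and 0 higher, against 9.99% and 8.64% of all probe sets.

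At 6 h SL the germination-induced gene *PYK10* was lower in tim17-1 and the dry-seed genes *BGLU19* and *AT3G21380* were higher. That is 2 of 5 genes called higher, where 0.510% of all probe sets were, and 1 of 5 called lower, where 0.769% were. The mean *PYK10* intensity of tim17-1 was 37.7% of WT, a difference of -1.21 ± 0.134 (limma, adjusted p = 0.000196). *AT3G21380* stood at 186% of WT, a difference of 0.91 ± 0.157 (limma, adjusted p = 0.00636). *BGLU19* stood at 182% of WT, a difference of 0.89 ± 0.192 (limma, adjusted p = 0.0282). *NAI2*, at 68.3% of WT, differed by -0.33 ± 0.105 and was not called (limma, adjusted p = 0.193), nor was *JAL34*, at -0.09 ± 0.0535 (limma, adjusted p = 0.86). The ranges of the genotypes did not overlap for 2 genes higher and 2 lower in tim17-1, and across all probe sets 6.72% and 8.22% were separated in those directions. The lower genes were *PYK10* and *JAL34*. The separation of *JAL34* was near the floor, at 8.34 to 8.91 in WT and 6.76 to 7.47 in tim17-1.

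The *BGLU19* call at 6 h SL was lost on leaving out 1 array in 5 of the 6 cases: WT replicate 1 (0.68) or 3 (0.92) and tim17-1 replicate 1 (0.85), 2 (0.90) or 3 (0.93). *NAI2* was called without tim17-1 replicate 2, at -0.47. Fitting only the 6 arrays of the stage left 4 residual degrees of freedom, and then 0 members and 0 of all probe sets were called by limma, with 4 members and 2165 probe sets at an unadjusted p under 0.05. The main fit also pools groups near the floor, where *PYK10* scattered less. In log2 units its tim17-1 arrays read 4.417, 4.426 and 4.417 at 48 h S and 5.739, 6.444 and 6.146 at 6 h SL. The SE given for 6 h SL is therefore set partly by groups that scattered less.

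**Figure D2:**
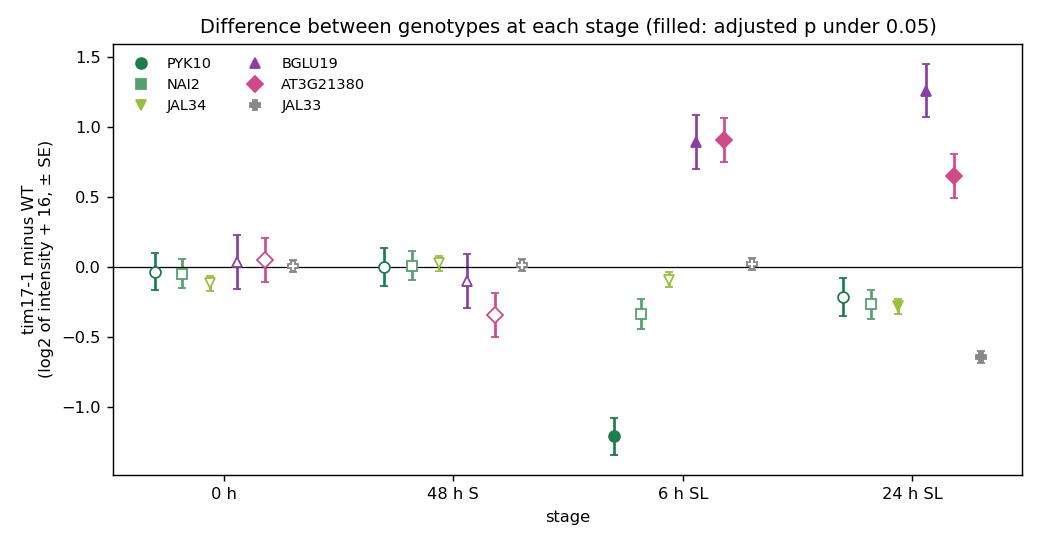
Difference between tim17-1 and WT at each stage (log2 of intensity + 16, points with SE from limma over 24 arrays) for the 5 genes and *JAL33*, with filled symbols where the adjusted p was under 0.05. At 6 h SL *PYK10* lies at -1.21 and *BGLU19* and *AT3G21380* at 0.89 and 0.91, and at 24 h SL *JAL33* lies at -0.64 and *BGLU19* at 1.26.

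The arrays within each genotype also differed at 6 h SL, and in each genotype 1 array stood out in the same combination of genes. Among the WT arrays, replicate 2 had the lowest *PYK10* (119.8) and *NAI2* (23.38) and the highest *BGLU19* (4515) and *AT3G21380* (470.4). Among the tim17-1 arrays, replicate 1 had the lowest *PYK10* (37.41) and *NAI2* (10.76) and the highest *BGLU19* (6838) and *AT3G21380* (729.9). The remaining arrays did not keep to this combination. Replicate 2 of tim17-1 was above replicate 3 in *PYK10* (71.04 against 54.81) and *NAI2* (24.69 against 18.53). It was also above it in *BGLU19* (6378 against 6168) and *AT3G21380* (601.2 against 559.5). WT replicate 3 was above replicate 1 in *PYK10*, *BGLU19* and *AT3G21380* and below it in *NAI2*. WT replicate 2 and tim17-1 replicate 1 were the lowest of their group on principal component 1 of all probe sets. That component took 73.3% of the variance and ran from dry seed to 24 h SL. On that axis the WT arrays lay at 59.08, 54.45 and 57.9 and the tim17-1 arrays at 45.57, 49.52 and 49.98, between the stratified seed (12.34 to 15.15) and the 24 h SL seed (93.4 to 101.2). At 24 h SL the tim17-1 arrays (93.4 to 94.06) were also below the WT arrays (98.19 to 101.2). The part of that position in the differences of the 5 genes was not tested. The 3′ minus 5′ difference of a *GAPDH* control was also separated at 6 h SL, at -0.214 to -0.133 in WT and -0.0739 to 0.0613 in tim17-1, while an older *GAPDH* control and both ubiquitin controls overlapped. The part of RNA quality in the result was not tested. The summed seed coat markers did not overlap at this stage either, at 17.8 to 21.4 in WT and 17.1 to 17.5 in tim17-1. Each was near the floor, with WT and tim17-1 means of 6.7 and 6.31 for *BAN*, 4.61 and 4.6 for *AT3G50990*, and 7.96 and 6.36 for *DFR*. Their sum is therefore a weak measure of seed coat, and their part in the result was not tested.

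**Figure D3:**
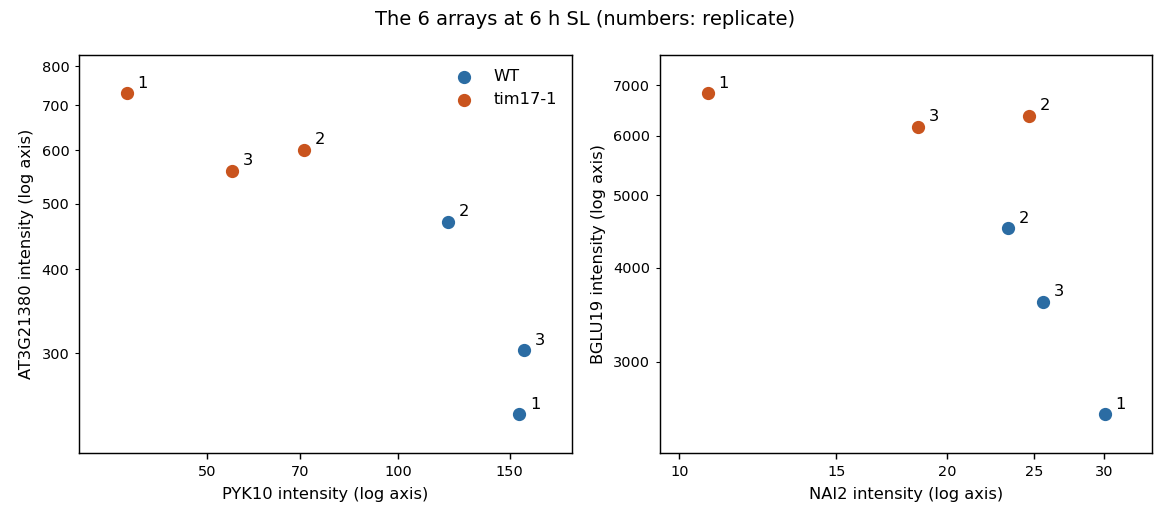
The 6 arrays at 6 h SL, with *PYK10* against *AT3G21380* (left) and *NAI2* against *BGLU19* (right) as intensity on log axes, each point numbered by its replicate. WT replicate 2 and tim17-1 replicate 1 lie towards low *PYK10* and high *AT3G21380* within their genotypes.

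At 24 h SL *BGLU19* and *AT3G21380* were again higher in tim17-1 (2 of 5 genes, against 1.59% of all probe sets), and *JAL34* was lower (1 of 5, against 2.73%). *BGLU19* stood at 240% of WT, a difference of 1.26 ± 0.192 (limma, adjusted p = 0.00051). *AT3G21380* stood at 166% of WT, a difference of 0.65 ± 0.157 (limma, adjusted p = 0.022). *JAL34* stood at 82.3% of WT, a difference of -0.28 ± 0.0535 (limma, adjusted p = 0.00417). *PYK10* differed by -0.21 ± 0.134 (limma, adjusted p = 0.613, 95% interval -0.497 to 0.0685) and *NAI2* by -0.27 ± 0.105 (limma, adjusted p = 0.226), and neither was called. The ranges were separated for 2 genes in each direction, as they were for 8.58% of all probe sets higher and 7.83% lower.

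The *AT3G21380* call at 24 h SL was lost with log2(intensity + 64), at 0.48, and without WT replicate 1 (0.56) or tim17-1 replicate 3 (0.58). The *JAL34* call was lost with log2(intensity + 1), at -0.28 (limma, adjusted p = 0.147), and *NAI2* was called with log2(intensity + 64) and without tim17-1 6 h SL replicate 1. With only the 6 arrays of the stage in the fit 0 members and 4 of all probe sets were called by limma, and 4 members and 2529 probe sets had an unadjusted p under 0.05. Of the 4 listed markers of greening tissue 2 were measured, and their sum was 2200 to 2310 in WT and 1630 to 1840 in tim17-1 at this stage. Their part in the result was not tested.

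Averaged over the 4 stages, *BGLU19* (0.52 ± 0.0958) and *AT3G21380* (0.32 ± 0.0786) were called higher in tim17-1, 2 of 5 genes against 1.11% of all probe sets. *PYK10* (-0.36 ± 0.0671) and *JAL34* (-0.11 ± 0.0268) were called lower, 2 of 5 against 3.08% (limma, adjusted p = 0.00362, 0.0273, 0.00388 and 0.0205 in that order). By stage the *PYK10* difference was -0.03 at 0 h, 0.002 at 48 h S, -1.21 at 6 h SL and -0.21 at 24 h SL. Its average thus rested mainly on 6 h SL. *JAL34* was near the floor at every stage but 24 h SL. *NAI2* differed by -0.16 ± 0.0525 and was not called (limma, adjusted p = 0.115), but was without tim17-1 6 h SL replicate 2 (-0.19). The average for *AT3G21380* lost its call with array weights (0.29) and without any of 5 arrays. In WT these were replicate 1 of 24 h SL (0.29), replicate 3 of 48 h S (0.31) and replicate 3 of 6 h SL (0.30). In tim17-1 they were replicate 3 of 24 h SL (0.30) and replicate 1 of 6 h SL (0.29). The average for *JAL34* lost it when weak probe sets were left out, at -0.11 (limma, adjusted p = 0.052).

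Whether a step differed between the genotypes was tested as an interaction, on the same arrays as the differences above. For the stratification step 0 of the 5 genes were called and 0 had an unadjusted limma p under 0.05, with 1.53% of all probe sets called higher and 1.15% lower. Its values were 0.03 for *PYK10*, 0.06 for *NAI2*, 0.15 for *JAL34*, -0.14 for *BGLU19* and -0.39 ± 0.222 for *AT3G21380*, and the last was called with only the arrays compared (limma, adjusted p = 0.0353). For the first 6 h of light *AT3G21380* was called higher in tim17-1 (0.470% of all probe sets) and *PYK10* lower (0.246%). The *AT3G21380* step was larger by 1.25 ± 0.222 (limma, adjusted p = 0.0158). The step was called higher in tim17-1 and was not called in WT. The tim17-1 seed also started lower at 48 h S, by -0.34 ± 0.157, a difference that was itself not called. The *PYK10* rise was smaller by 1.21 log2 units in tim17-1, an interaction of -1.21 ± 0.19 (limma, adjusted p = 0.00718). *BGLU19* fell in WT and was not called in tim17-1, but the difference of the steps, 1.00 ± 0.271, was not called (limma, adjusted p = 0.114). It was called with array weights (0.94), with weak probe sets left out, and on leaving out replicate 3 of WT at 24 h SL or replicate 2 of WT at 6 h SL (1.19). *NAI2* (-0.35 ± 0.148) and *JAL34* (-0.12 ± 0.0757) were not called.

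From 6 to 24 h of light *PYK10* was called higher in tim17-1 as an interaction, 1 of 5 genes against 0.400% of all probe sets, with 0 of 5 called lower against 1.13% and 2 of 5 at an unadjusted limma p under 0.05. Its rise was larger by 0.99 ± 0.19 (limma, adjusted p = 0.00923), and by 0.61 with log2(intensity + 64). *PYK10* thus differed between the genotypes at 6 h SL and was not called at 24 h SL, with the difference between those stages itself called. For *BGLU19* the interaction of that step was 0.36 ± 0.271 and for *AT3G21380* -0.25 ± 0.222, and neither was called. Nor were *NAI2* (0.07 ± 0.148) and *JAL34* (-0.19 ± 0.0757), though *JAL34* was with log2(intensity + 64), at -0.24. With only the 12 arrays of each step in the fit, the 3 interactions named here were not called (limma, adjusted p = 0.0601 and 0.208 for *PYK10* and 0.0907 for *AT3G21380*).

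Of 20 other listed genes of ER bodies and the PYK10 complex, 7 were measured: *NAI1*, *ATA27* (BGLU20), *BGLU24*, *BGLU25*, *JAL33*, *JAL22* and *JAL23*. In the genotype comparisons 1 of the 7 was called lower at 24 h SL (2.73% of all probe sets) and in the average (3.08%), and 0 were called at 0 h, 48 h S or 6 h SL, where 1, 2 and 1 had an unadjusted limma p under 0.05. The gene was *JAL33*, a lectin gene and the immediate neighbour of *JAL34*. Its intensity lay between 6.88 and 9.26 up to 6 h SL. After 24 h of light it was 705.8, 786.5 and 698.5 in WT and 434, 481.7 and 473 in tim17-1, with no overlap. The difference was -0.64 ± 0.0435 (limma, adjusted p = 5.90e-08), and with only the 6 arrays of the stage it was not called (limma, adjusted p = 0.123). The difference averaged over the stages, -0.15 ± 0.0218, lost its call with log2(intensity + 1). The median difference at 24 h SL was 0.0009 over the 7 genes and 0.0017 over all probe sets.

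*NAI1* encodes the basic helix-loop-helix factor that drives *PYK10* and *NAI2*. Its mean intensity in WT was 12.5 ± 0.378 (SD, n = 3) in dry seed, 14.2 ± 0.339 at 48 h S and 21.6 ± 3.83 at 6 h SL. At 24 h SL the arrays read 327.8, 134.7 and 305.7 in WT and 142.6, 265.9 and 96.54 in tim17-1, so that the groups overlapped. It was called higher from 6 to 24 h SL in both genotypes, by 2.77 ± 0.273 in WT. The genotypes differed at 24 h SL by -0.58 and this was not called (limma, adjusted p = 0.369). It was called without WT replicate 2 (-0.96) or tim17-1 replicate 2 (-0.94).

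During stratification 4 of the 7 genes were called lower in WT (44.7% of all probe sets) and 1 higher (28.4%). *JAL22* (-0.27), *BGLU24* (-0.15), *JAL23* (-0.07) and *ATA27* (-0.04) were the lower ones and *BGLU25* the higher one. *JAL22* read 22.26, 8.46 and 8.04 in WT dry seed and 7.12 to 7.67 at 48 h S, so its value rests largely on 1 array. The WT means fell from 6.88 to 5.85 for *JAL23* and from 5.89 to 5.31 for *ATA27*, near the floor. The median change over all probe sets was -0.03. *BGLU25* was also the 1 gene called in tim17-1, where 26.8% of all probe sets were called higher and 32.9% lower. In the first 6 h of light *BGLU25* was called lower in WT (-0.50 ± 0.084) and tim17-1 (-0.53 ± 0.084), and *BGLU24* in tim17-1 (-0.11 ± 0.0406). Over all probe sets 18.4% were called lower in WT and 19.2% in tim17-1 at that step. *NAI1*, *BGLU25* and *JAL33* were called higher from 6 to 24 h SL in WT (20.5% of all probe sets), and *NAI1* and *JAL33* in tim17-1 (20.7%). *BGLU25*, a β-glucosidase gene of the PYK10 subfamily, had another course: its WT mean was 309 ± 7.33 (SD, n = 3) in dry seed, 608 ± 8.15 at 48 h S, 426 ± 34.9 at 6 h SL and 514 ± 71.5 at 24 h SL. It was called higher at stratification in both genotypes, by 0.94 ± 0.084 in WT and 1.39 ± 0.084 in tim17-1. *ATA27*, *JAL22* and *JAL23* stayed at or below an intensity of 22.26 on every array, and *BGLU24* at or below 12.37.

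Of 45 other β-glucosidase genes 20 were measured, and at 24 h SL 0 were called higher (1.59% of all probe sets) and 2 lower (2.73%) in tim17-1 by limma, and these were also the 2 with an unadjusted p under 0.05. *BGLU40* had 54.6 ± 6.22 in WT and 43.2 ± 1.02 in tim17-1 (-0.25 ± 0.0432, limma, adjusted p = 0.00155). *BGLU15* had 10.1 ± 1.42 and 7.71 ± 1.37 (-0.14 ± 0.0358, limma, adjusted p = 0.032). With log2(intensity + 64) those differences were -0.15 and -0.05, and with log2(intensity + 1) the *BGLU15* difference was -0.36. Fitting only the 6 arrays of the stage ended both calls (limma, adjusted p = 0.296 and 0.508). The *BGLU15* call was also lost with array weights (-0.12), with quantile normalization (-0.10), without WT replicate 1 (-0.11) or 2 (-0.13), and without tim17-1 replicate 1 (-0.11) or 2 (-0.12). *BGLU44* was called higher at all 3 steps in both genotypes, with WT means of 168 ± 5.14, 891 ± 59.7, 1420 ± 97.7 and 2730 ± 301 (SD, n = 3). During stratification 3 of the 20 were called higher and 11 lower in WT (28.4% and 44.7% of all probe sets), and 3 and 4 in tim17-1 (26.8% and 32.9%). The largest changes in WT were those of *BGLU44* (2.30), *BGLU42* (1.34), *BGLU25* (0.94), *BGLU46* (-0.43), *BGLU16* (-0.38) and *BGLU24* (-0.15), and in tim17-1 those of *BGLU44* (2.10), *BGLU25* (1.39), *BGLU42* (1.39), *BGLU16* (-0.32), *BGLU27* (-0.12) and *BGLU43* (-0.07). In the first 6 h of light 3 were called higher in each genotype, *BGLU42*, *BGLU44* and *BGLU28* (19.4% of all probe sets in WT and 18.9% in tim17-1). Called lower were 1 in WT (*BGLU25*, against 18.4%) and 3 in tim17-1 (*BGLU25*, *BGLU24* and *BGLU31*, against 19.2%). From 6 to 24 h SL *BGLU40*, *BGLU44*, *BGLU25* and *BGLU15* were called higher in WT (20.5% of all probe sets) and *BGLU40*, *BGLU44* and *BGLU42* in tim17-1 (20.7%). Of 7 other genes that carry a JAL number or a jacalin synonym in the names used, 3 were measured, *JAL22*, *JAL23* and *JAL33*, described above. That list rests on names alone and is not the whole lectin family, since it leaves out *AT3G21380* itself. None of 10 listed genes of glucosinolate breakdown was measured.

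All 5 genes lie on chromosome 3, and *BGLU19* and *AT3G21380* are close neighbours, with 1 gene, *AT3G21371*, between them. Their level through germination was therefore set beside that of the measured genes around them, each as a percentage of its own dry-seed mean. *BGLU19* reached 0.823% and *AT3G21380* 0.615% in WT at 24 h SL. *AT3G21360*, whose annotated span overlaps that of *BGLU19*, also fell at every step in both genotypes, to 25.3%, from 249 ± 31.4 to 63.1 ± 6.25 (SD, n = 3). *AT3G21390* was at 168%, *AT3G21400* at 137% and *MED6* at 131% of dry seed, and *AT3G21410* stayed between 5.79 and 6.76 in WT. None of these neighbours was called between genotypes at 6 h SL or 24 h SL. *MED6* was called lower in tim17-1 at 48 h S (-0.56 ± 0.116, limma, adjusted p = 0.0225) and in the interaction of the stratification step (-0.69 ± 0.164, limma, adjusted p = 0.0295). At 24 h SL *AT3G21360* differed by 0.26 (limma, unadjusted p = 0.0224, adjusted p = 0.231).

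**Figure D4:**
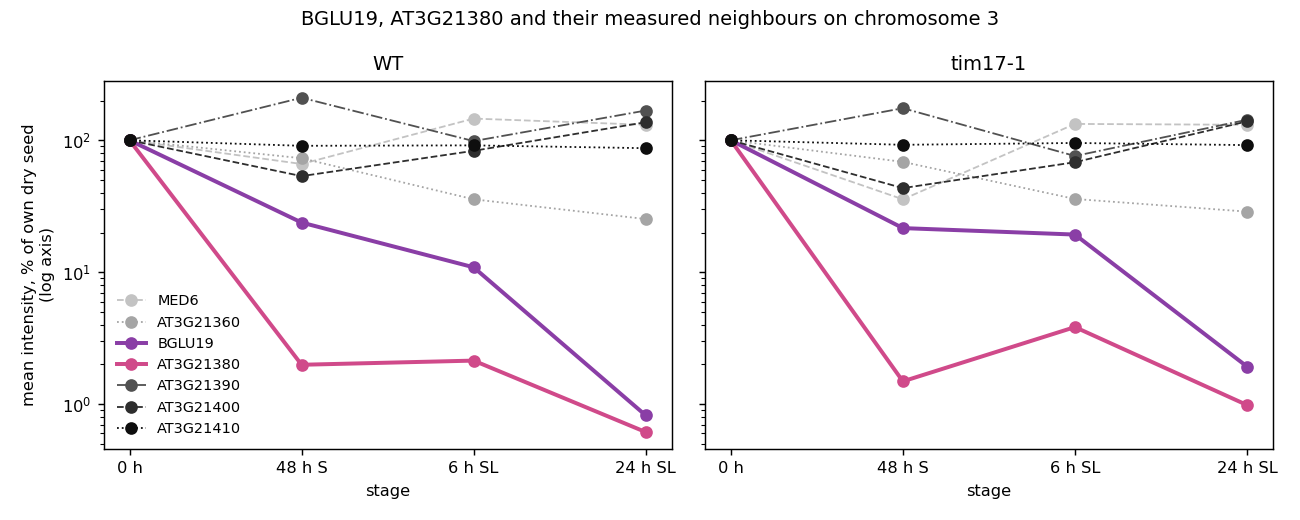
Mean intensity of *BGLU19*, *AT3G21380* and 5 measured neighbours at each stage, as a percentage of each gene's own dry-seed mean in that genotype (log axis). In WT at 24 h SL *BGLU19* and *AT3G21380* lie at 0.823% and 0.615%, and *AT3G21360* lies at 25.3%.

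As a description of pattern, correlations were taken over the 24 arrays, which fall into stage clusters and share those stages. Pearson's r was 0.991 between *PYK10* and *NAI2*, 0.992 between *NAI2* and *JAL34*, and 0.968 between *PYK10* and *JAL34*. It was 0.835 between *BGLU19* and *AT3G21380*, which fell mainly at different steps, and -0.927 between *PYK10* and *BGLU19*. Among 13512 probe sets compared, the 3 most like *PYK10* were *AT1G61260*, *SAH7* and *AT5G02550* (r = 0.9961, 0.9956 and 0.9952), and *NAI2* ranked 17. For *NAI2* they were *TBL39*, *FLDH* and *ZW9* (0.9978, 0.9975 and 0.9973), and for *JAL34* they were *AT5G57700*, *AT1G32470* and *AT1G29080* (0.9995, 0.9992 and 0.9992). For *BGLU19* they were *AT1G47980*, *AT3G56350* and *AT4G31830* (0.9941, 0.9886 and 0.9875), and for *AT3G21380* *AT2G20560*, *AT5G60760* and *AT1G65090* (0.994, 0.9931 and 0.9931). By the same ranking *JAL34* was 144 for *PYK10*. *AT3G21380* was 2213 for *BGLU19*, and *BGLU19* was 3172 for *AT3G21380*, so many other genes were closer in pattern to each of them.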

How the data were processed

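The values are linear intensity values that the authors deposited, 1 column per array. The submitters' processing notes name MAS5, RMA and Partek without versions. The tool behind these values and the scaling of arrays are not given in the sources used here. No detection call is included, so low intensities cannot be set against background. Groups came from the sample titles. Of 22810 probe sets 64 controls were left out. Genes were named through a platform annotation and a RefSeq table (GCF_000001735.4, TAIR10.1): 13513 probe sets had 1 gene, 503 several and 8730 were not listed. From the deposited intensities log2(value + 16) was computed, which understates changes of weak transcripts. In limma 3.58.1 (R 4.3.3) 1 model of 8 group means was fitted over 24 arrays (16 residual degrees of freedom), with empirical Bayes moderation and Benjamini-Hochberg adjustment over all probe sets. The procedure was tested on simulated data with normal noise of equal spread in all groups. On these arrays the spread of a gene differed between groups, so the simulation cannot speak to p-values that depend on that. Alternatives were other offsets (1, 64), a filter on weak probe sets (over 64 on at least 3 arrays), cyclic loess, quantile normalization, array weights, only the arrays compared, a replicate block, and each array left out. The 5 genes and all lists were chosen with earlier results of these data known. All 5 are named in every comparison; other listed genes are named where they were called, those of largest change first and at most 6 of a list, and for pattern the 3 probe sets of highest r per gene.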

Additional observations from a re-analysis of the deposited data

Results flagged for a closer look

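In 4 cases the change over a step differed between the genotypes by a test of the difference itself. For *PYK10* the rise from 48 h S to 6 h SL was smaller in tim17-1 (interaction -1.21), and the rise from 6 h SL to 24 h SL was larger (0.99). For *AT3G21380* the change from 48 h S to 6 h SL was more positive in tim17-1 (1.25). For *JAL33* the rise from 6 h SL to 24 h SL was smaller in tim17-1 (-0.66 ± 0.0616, limma, adjusted p = 1.13e-05). *PYK10* at 48 h S and *JAL33* at 6 h SL were near the floor in both genotypes. Those 2 interactions therefore largely repeat the genotype differences at the later stage, -1.21 for *PYK10* and -0.64 for *JAL33*. The interactions of *PYK10* and *AT3G21380* were not called when only the arrays of the step were fitted.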

How the results depend on the processing

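Over 32 alternatives (31 for averages), 22 of 34 called differences of the 5 genes kept their call, and none of the 34 changed direction. Most of those that kept it were steps between stages. Every call between genotypes at 6 h SL or 24 h SL, and every called interaction, was lost in at least 1 alternative. Among genotype calls only the averages of *BGLU19* and *PYK10* kept theirs, and averages were not refitted with only the arrays compared. The numbering of arrays did not pair them: over 12 same-numbered pairs the correlation of deviations was -0.26 to 0.091, and a replicate block changed no call of the 5 genes (2 higher and 1 lower at 6 h SL). An alternative probe set could not be run, since each gene has 1.

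With only the arrays compared, the genes called higher became 0 (of 2) at 6 h SL and at 24 h SL and 0 (of 1) in both light interactions; those called lower became 0 (of 1) at 6 h SL, 24 h SL and in the interaction of the first light step, but 1 (of 0) in the stratification interaction and in the first light step of tim17-1; fewer arrays leave fewer degrees of freedom. With log2(value + 64), 1 was higher and 2 lower at 24 h SL and 1 lower in the interaction of the last step; with log2(value + 1), 0 were lower at 24 h SL. Array weights gave 1 higher in the average and 2 in the interaction of the first light step, and the filter 2 there and 1 lower in the average. Leaving out 1 array gave 1 to 2 higher at 6 h SL, at 24 h SL and in the average, 1 to 2 in the interaction of the first light step, and 1 to 2 lower at 6 h SL and 24 h SL. A fit of only the arrays compared also leaves out the scatter of the other groups. The causes were not tested.

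Only differences that were not called turned sign. For *NAI2* the interaction of the last step became -0.016 (cyclic loess), -0.12 (log2(value + 64)) and -0.027 (quantile), and -0.093 to 0.21 with 1 array left out. Its tim17-1 stratification step became -0.011 (array weights) and -0.060 (cyclic loess), and -0.015 to 0.016 with 1 array left out, and its difference at 48 h S lay between -0.0084 and 0.027. For *PYK10* the tim17-1 stratification step became 0.013 (quantile) and -0.014 to 0.00014 with 1 array left out, and the difference at 48 h S -0.0089 (quantile) and -0.00067 to 0.0052. With 1 array left out *BGLU19* at 0 h ranged from -0.067 to 0.10 and the first light step of *AT3G21380* in WT from -0.20 to 0.26. For *JAL34* that step in tim17-1 was 0.0076 (quantile).

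The number of all probe sets called moved as well. At 6 h SL it went from 116 higher and 175 lower to between 0 and 311 and between 0 and 536. At 24 h SL it went from 362 and 621 to between 0 and 521 and between 4 and 788. At 48 h S it went from 82 and 198 to between 28 and 2242 and between 73 and 1864. In dry seed it went from 300 and 531 to between 6 and 624 and between 33 and 664. For the interactions of the first and last light steps it ranged from 38 to 777 and 17 to 370 higher and from 19 to 934 and 45 to 460 lower. Values near the floor of the arrays limit what can be said of *PYK10* and *NAI2* before 6 h SL. For *JAL34* the limit includes 6 h SL itself, where its arrays read 6.76 to 8.91. *NAI2* was also still low at 6 h SL, at 10.76 to 30.04.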
